A study of Mus musculus with 10 samples.

Results

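The vacuolar ATPase and the Rab GTPases of mouse microglia were described as separate families, chosen by gene symbol alone. The members were all gene symbols in the 10 count tables that begin with Atp6v0, Atp6v1 or Atp6ap, or that read Rab followed by a number with at most a letter and a digit after it. The rule gave 79 genes of 18292, of which 22 belonged to the vacuolar ATPase and 57 to the Rab family.

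All cells came from C57BL/6 mice and were sorted as live CD11b-high, CD45-intermediate cells, so every group is a sorted population and not whole tissue. Adult microglia were taken directly from the brains of mice at least 10 weeks old, the lower end of the range the study's methods give for adult tissue. *In vitro* microglia came from mixed glial cultures of newborn cortex kept for 3 weeks, and slice microglia came from coronal slices of newborn brain kept on a membrane and harvested after 1 day, after 1 week or after 3 weeks, where several slices could be pooled. There were 5 groups of 2 libraries, and the labels name no drug and no transgene in any of them. The culture groups thus differ from adult both in culture and in the age of the animals at the start, and these cannot be told apart.

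The vacuolar ATPase (V-ATPase) is a rotary pump that acidifies lysosomes, endosomes and phagosomes. Its V1 sector hydrolyses ATP in the cytosol, its V0 sector carries protons through the membrane, and the a and d subunits of V0 exist as isoforms that differ between tissues and organelles. Rab GTPases mark the membranes of the same trafficking route, from the Golgi through early and late endosomes to lysosomes and secretory granules, and recruit effectors when bound to GTP. Microglia rely on both for clearing debris by phagocytosis.

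The libraries held 19059 cells after filtering, from 61 to 3799 per library, and between 385373 and 39689540 unique molecular identifier (UMI) counts. Both slice 1 week libraries were small, with 148 and 61 cells. The study also removed outlier cells, a step not repeated here, so the larger of these libraries holds many cells that the study did not count as microglia. The lowest and the highest cell counts of the other libraries are also above the lowest and the highest that the study gives. Other libraries thus hold such cells too. Levels are given as CPM, the UMIs summed over the cells of a library and scaled to a common library size with the trimmed mean of M values (TMM). These are tags of transcript 3′ ends, which do not scale with transcript length. A member was called when its edgeR quasi-likelihood test gave an adjusted p under 0.05 (Benjamini-Hochberg over 12157 genes) and a fold above 1.5, and "rose" and "fell" are used only of calls. Of the members, 19 V-ATPase and 48 Rab genes had enough counts to be tested. The calls rest on a spread estimated over all groups, and the study calls the 2 libraries of a group independent samples without naming the animals or cultures behind them, so p-values measure the spread between libraries, which may be technical.

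Some properties of whole libraries bear on these values. Cells of the culture groups carried more UMIs, and on a scale of UMIs per cell the median gene was above adult on the log2 scale, by 2.04 in the *in vitro* group and by 1.49, 1.10 and 1.05 in slices from the earliest time to the latest. Falls below are therefore falls relative to the other transcripts. Without TMM the median gene lay at -0.42, -0.19, -0.31 and -0.23, and no called member changed direction. The summed level of 12 microglia markers was 0.205, 0.154, 0.329 and 0.553 of the adult level in the same order of groups. The 7 border macrophage markers summed to 4911 and 4810 CPM *in vitro* against 12.6 and 7.21 CPM in adult, from Ms4a7, Pf4 and Mrc1, while Lyve1 and Cd163 stayed at or below 1.23 CPM there. In the slices the same markers summed to 372 and 315 CPM at 1 day, 519 and 317 CPM at 1 week and 173 and 133 CPM at 3 weeks. The 10 cycling markers summed to between 377 and 785 CPM in the culture libraries against 101 and 96.6 CPM in adult, and cycling cells made up 10.1% to 51.1% of the culture libraries and 0.658% and 0.397% of the adult ones. Without cycling cells 85 of the 88 calls of named members were kept. The 11 neutrophil markers summed to 7511 and 22152 CPM at 1 day and to 43131 and 1017 CPM at 1 week, against at most 192 CPM in any other library. The 8 monocyte markers summed to 6.73 and 4.76 CPM in adult and to between 40.9 and 1240 CPM in the culture libraries. In both *in vitro* libraries, both slice 3 weeks libraries and slice 1 week replicate 2 nearly all of this was Fn1 (39.7 of 40.9 CPM in *in vitro* replicate 1). The monocyte markers Ccr2 and Plac8 were below both adult libraries in the *in vitro* and slice 3 weeks libraries. Slice 1 week replicate 2 held 0 counts of each, but 3 counts there are 7.78 CPM, so no lower level can be shown. The 6 neuron markers summed to 56.3 and 25.6 CPM at 1 week, against 1.39 and 2.32 CPM in adult and at most 10.2 CPM in any other library. The part of the other cell types in the results was not tested except where values are given without neutrophil-marker cells, those in which the neutrophil markers held at least 1% of the UMIs. Pairs of libraries shared at most 23 cell barcodes.

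More V-ATPase members rose than fell *in vitro*, and the summed V1 level was above adult in every culture library. In the slices rises outnumbered falls by few members, so the counts give no direction for the family there. Without TMM falls outnumbered rises at slice 1 week and equalled them at 3 weeks. *In vitro*, 12 of the 19 tested members rose and 3 fell, where 22.4% of all tested genes rose and 28.5% fell (50.8% in either direction). At slice 1 day 7 rose and 4 fell (24.9% and 25.3% of all genes, 50.2% in all), at slice 1 week 5 rose and 4 fell (15.0% and 13.6%, 28.6% in all), and at slice 3 weeks 5 rose and 3 fell (17.9% and 17.5%, 35.4% in all). Without TMM the calls up and down were 8 and 4, 5 and 4, 3 and 5, and 3 and 3 in the same order, while 30.0%, 43.1%, 37.6% and 35.8% of all calls were then upward in place of 44.0%, 49.5%, 52.5% and 50.6%. On the UMIs-per-cell scale 17, 16, 13 and 16 members rose and 0 fell, where 94.5%, 95.1%, 97.0% and 95.3% of all calls were upward. The median log2 fold change of the tested members was 0.91, 0.40, 0.29 and 0.46 in the same order, against -0.11, -0.06, -0.08 and -0.03 for all genes. These comparisons share the adult libraries. The rises include the low-count genes Atp6v0e2 in each group and Atp6v0c in all but slice 1 week. Each of these calls was lost in some fit without 1 library.

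The summed level of all 22 members was 3412 and 3600 CPM in adult and 4957 and 5092 CPM *in vitro*, a ratio of means of 1.43 (1.16 without TMM). In the slices the ratios were 1.04, 0.989 and 1.082, and these went below 1 at every time without TMM (0.955, 0.858 and 0.940), so no direction can be given for the slices. The sectors differed. V1 subunits summed to 1307 and 1391 CPM in adult, 2668 and 2750 CPM *in vitro*, 1901 and 1891 CPM at 1 day, 1818 and 1662 CPM at 1 week and 1773 and 1894 CPM at 3 weeks. Every culture library lay above both adult libraries. The V1 ratios to adult were 2.01, 1.41, 1.29 and 1.36, and 1.62, 1.29, 1.12 and 1.18 without TMM. V0 subunits stood at 1.23 *in vitro*, which became 0.997 without TMM, and at 0.849, 0.859 and 0.876 in the slices. Atp6v0b alone, which fell in the slices, gave 890 and 965 of the 1409 and 1504 CPM of V0 in adult. Of the 8 tested V0 genes 4, 3 and 4 rose by slice time and 2 fell each time. Of all genes 24.9%, 15.0% and 17.9% rose and 25.3%, 13.6% and 17.5% fell there. The low V0 sum in the slices is thus not shared by most V0 genes. The 2 accessory proteins stood at 0.739 of adult *in vitro*, 0.738 and 0.677 in the earlier slices, and 0.977 in slices of 3 weeks. On the UMIs-per-cell scale all of these ratios were above 1.

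**Figure D1:**
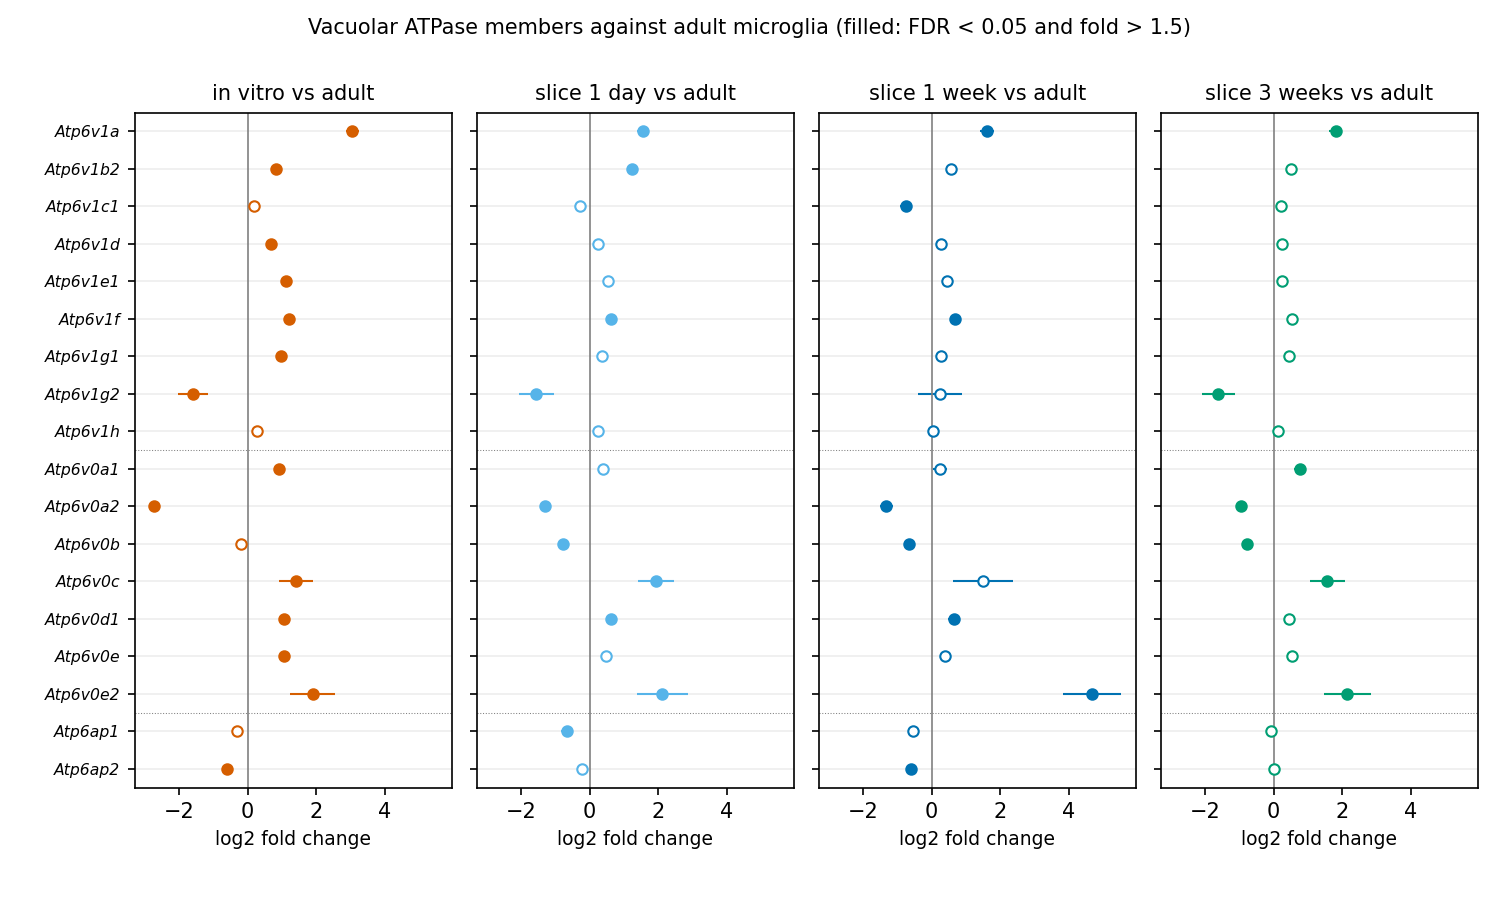
Log2 fold change against adult microglia (x axis) of the 18 tested V-ATPase members with counts in adult libraries (y axis, V1, V0 and accessory genes parted by dotted lines), with bars of 1 standard error. Filled points passed the test, and Atp6v1a lies to the right and Atp6v0a2 to the left in all 4 panels; Atp6v0d2 is left out because both adult libraries held 0 counts.

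Atp6v1a, which encodes the catalytic A subunit of V1, rose in all 4 culture groups. It was read at 27.2 and 20.7 CPM in adult, 189 and 210 CPM *in vitro*, 62.3 and 79.7 CPM at slice 1 day, 75.1 and 71.6 CPM at 1 week and 79.2 and 89.3 CPM at 3 weeks. No culture library overlapped the adult range, and the *in vitro* pair lay above every slice library. The log2 fold changes were 3.05 ± 0.18 (SE; edgeR adjusted p = 5.1e-07), 1.57 ± 0.18 (5.5e-05), 1.61 ± 0.21 (0.00031) and 1.81 ± 0.18 (4.8e-05). *In vitro* it was also above slice 3 weeks, by 1.24 ± 0.17 (edgeR adjusted p = 0.00036). No fit that left out 1 library lost any of these calls.

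The other V1 subunits moved less. Atp6v1b2, the ATP-binding B subunit, was read at 102 and 106 CPM in adult, at 185 CPM in both *in vitro* libraries and at 241 and 252 CPM at slice 1 day, where it was highest. It rose by 0.83 ± 0.14 *in vitro* (edgeR adjusted p = 0.00064) and by 1.24 ± 0.14 at 1 day (6.1e-05), and missed the fold threshold at 1 week (0.57) and 3 weeks (0.52). The peripheral and central stalk genes Atp6v1e1, Atp6v1f, Atp6v1g1 and Atp6v1d rose *in vitro*, by 1.11, 1.21, 0.98 and 0.69. Atp6v1f alone of these also rose at 1 day (0.63) and 1 week (0.70), from 289 CPM in both adult libraries to 456 and 443 CPM and to 496 and 440 CPM. Atp6v1g1, the most highly read V1 gene, had 452 and 522 CPM in adult, 949 and 972 CPM *in vitro* and 568 to 710 CPM in the 6 slice libraries. Its slice differences of 0.36, 0.27 and 0.46 did not pass.

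A few V1 genes went the other way. Atp6v1g2, the G isoform best known from neurons, was at 7.83 and 5.79 CPM in adult and 2.28 and 2.24 CPM *in vitro*, a log2 difference of -1.60 that passed (edgeR adjusted p = 0.0097). It lost its call *in vitro* (-1.26, 0.105), at 1 day (-1.26, 0.143) and at 3 weeks (-1.30, 0.143) without adult replicate 1, and each of these calls was also lost without 1 or both libraries of the culture group. Atp6v1c1, a stalk subunit that links V1 to V0, fell only in the slice 1 week comparison, to 94.8 and 74.1 CPM from 132 and 157 CPM in adult (-0.74 ± 0.17, edgeR adjusted p = 0.0077). Atp6v1h, a regulatory subunit, stayed between 43.2 and 53.9 CPM in all 10 libraries and passed nowhere. The tissue-restricted isoforms Atp6v1b1 and Atp6v1c2 held 1 count each over all 10 libraries and were not tested.

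Several V-ATPase promoters hold an E-box of the type bound by TFEB and related MiT factors, and the windows that hold it are shown for that reason alone. Promoter windows from 250 bases before to 50 after the annotated start were taken from RefSeq (GRCm38.p6), where 62 of the 79 members had one. The motif searched was TCACGTGA, which reads the same on both strands and contains the shorter CACGTG. It occurred in 3 of the 16 V-ATPase genes with a window, in 3 of the 46 Rab genes and in 1.12% of all genes of the table. The shorter CACGTG occurred in 4 of 16, 6 of 46 and 8.09%. The whole windows of the V-ATPase genes are given below 5′ to 3′ with the motif in capitals. They lie at chr16:44139210-44139509 (minus strand), chr8:105566015-105566314 (minus strand) and chr17:26676146-26676445 (plus strand).
Atp6v1a: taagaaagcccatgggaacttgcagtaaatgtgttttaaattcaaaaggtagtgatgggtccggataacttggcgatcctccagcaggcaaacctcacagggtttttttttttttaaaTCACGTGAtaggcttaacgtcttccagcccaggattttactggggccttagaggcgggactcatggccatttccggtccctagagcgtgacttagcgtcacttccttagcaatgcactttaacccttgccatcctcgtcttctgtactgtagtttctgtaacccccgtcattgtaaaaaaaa
Atp6v0d1: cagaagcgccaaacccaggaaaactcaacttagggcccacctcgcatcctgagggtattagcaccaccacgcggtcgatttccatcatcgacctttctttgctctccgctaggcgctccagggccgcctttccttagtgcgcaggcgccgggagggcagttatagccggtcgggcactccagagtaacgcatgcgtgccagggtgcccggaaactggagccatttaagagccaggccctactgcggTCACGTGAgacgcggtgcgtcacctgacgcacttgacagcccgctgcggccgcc
Atp6v0e: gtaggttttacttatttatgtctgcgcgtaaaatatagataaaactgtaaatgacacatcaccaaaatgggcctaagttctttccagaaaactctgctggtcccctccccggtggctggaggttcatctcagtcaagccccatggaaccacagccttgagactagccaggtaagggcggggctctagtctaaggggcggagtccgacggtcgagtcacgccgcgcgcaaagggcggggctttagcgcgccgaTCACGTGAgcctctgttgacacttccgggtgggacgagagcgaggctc
The motif began 132 bases before the start in Atp6v1a, 4 bases before it in Atp6v0d1 and 2 bases after it in Atp6v0e. For the Rab genes, 60 bases around the motif are given, at chr10:115315589-115315648 (minus), chr17:53479112-53479171 (plus) and chr13:55321946-55322005 (minus).
Rab21: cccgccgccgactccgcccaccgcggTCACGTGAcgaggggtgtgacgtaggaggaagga
Rab5a: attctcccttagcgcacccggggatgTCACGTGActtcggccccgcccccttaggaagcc
Rab24: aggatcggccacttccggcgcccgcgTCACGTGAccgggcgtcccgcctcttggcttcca
The 3 V-ATPase genes with the motif were among the 12 of 19 tested members that rose *in vitro*, by 3.05, 1.06 and 1.07 for Atp6v1a, Atp6v0d1 and Atp6v0e. Of the tested members Atp6v0a2, Atp6v0d2, Atp6v1b2, Atp6v1c1, Atp6v1g1 and Atp6v1h had no window and could show no motif. Of these, Atp6v0d2, Atp6v1b2 and Atp6v1g1 also rose *in vitro*, and most tested members with a window but no motif rose as well. In the slices Atp6v1a rose at each time, Atp6v0d1 at 1 day and 1 week, and Atp6v0e at none. Atp6v0b, the other V-ATPase gene with the shorter CACGTG, did not pass *in vitro* and fell at each slice time. Of the Rab genes with it, Rab21 rose *in vitro* (1.31 ± 0.28, edgeR adjusted p = 0.0023), and Rab5a (-0.40) and Rab24 (-0.10) did not pass. Of the Rab genes with only the shorter CACGTG, Rab27a (-3.17) and Rab23 (-0.81) fell *in vitro* and Rab20 (0.18) did not pass. A match describes letters in a window and not a bound site.

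Within V0, the isoforms of subunit a moved in opposite directions. Atp6v0a2, an isoform of Golgi and endosomal membranes, fell in all 4 culture groups. It was read at 71.6 and 76.0 CPM in adult, 10.97 and 11.3 CPM *in vitro*, 29.6 and 30.3 CPM at 1 day, 27.7 and 33.2 CPM at 1 week and 35.4 and 41.3 CPM at 3 weeks. Adult was highest, *in vitro* lowest, and no group overlapped either of these. The log2 fold changes were -2.73 ± 0.14 (edgeR adjusted p = 1.9e-07), -1.30 ± 0.14 (3.4e-05), -1.32 ± 0.18 (0.00048) and -0.94 ± 0.13 (0.00038), and the *in vitro* level was below slice 3 weeks by -1.79 ± 0.14 (8.1e-06). On the UMIs-per-cell scale the slice 1 day and 3 weeks differences were 0.263 and 0.160, so these falls were in the share of transcripts.

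Atp6v0a1, the ubiquitous a isoform, was read at 39.6 and 32.2 CPM in adult, 66.0 and 69.3 CPM *in vitro* and 54.4 and 67.3 CPM at slice 3 weeks. It rose by 0.91 ± 0.15 *in vitro* (edgeR adjusted p = 0.00053) and 0.76 ± 0.15 at 3 weeks (0.0031), and its differences of 0.40 and 0.25 at 1 day and 1 week did not pass. In adult both libraries held more Atp6v0a2 than Atp6v0a1 tags, and in every culture library the order was the reverse. The a3 isoform, encoded by Tcirg1 and known from lysosomes and osteoclasts, lies outside the symbol rule. It was at 151 and 122 CPM in adult and 92.4 and 89.8 CPM *in vitro*, where it fell by 0.59 on the log2 scale (edgeR adjusted p = 0.0083), and it passed in no slice group. The kidney isoform Atp6v0a4 held 2 counts in all and was not tested.

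The d isoforms gave the widest contrast of the family. Atp6v0d2, the d isoform of osteoclasts and some macrophages, had 0 counts in both adult libraries. It was read at 20.7 and 31.5 CPM *in vitro*, 3.93 and 3.40 CPM at 1 day, 8.89 and 5.11 CPM at 1 week and 33.6 and 27.7 CPM at 3 weeks, from 1768, 48, 11 and 855 UMIs. The group means were 186-fold, 26.2-fold, 50.02-fold and 219-fold a floor of 3 counts over both adult libraries (0.140 CPM). This floor bounds the adult level only, and the counting error of the culture counts is not covered. The rise between slice 1 day and slice 3 weeks was 3.08 ± 0.29 (edgeR adjusted p = 0.00018), and the difference of -0.23 between *in vitro* and slice 3 weeks did not pass. In GENCODE M21 the gene lies on chromosome 4 from 19876841 to 19922605 (GRCm38, minus strand). Its ubiquitous partner Atp6v0d1 was at 127 and 118 CPM in adult and rose to 250 and 261 CPM *in vitro* (1.06 ± 0.14, edgeR adjusted p = 0.00011). It also rose to 180 and 195 CPM at 1 day (0.61) and 180 and 205 CPM at 1 week (0.64). Without adult replicate 2 these slice values were 0.56 and 0.58 and neither was called, and the 1 week call was also lost without slice 1 week replicate 2 (0.52).

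**Figure D2:**
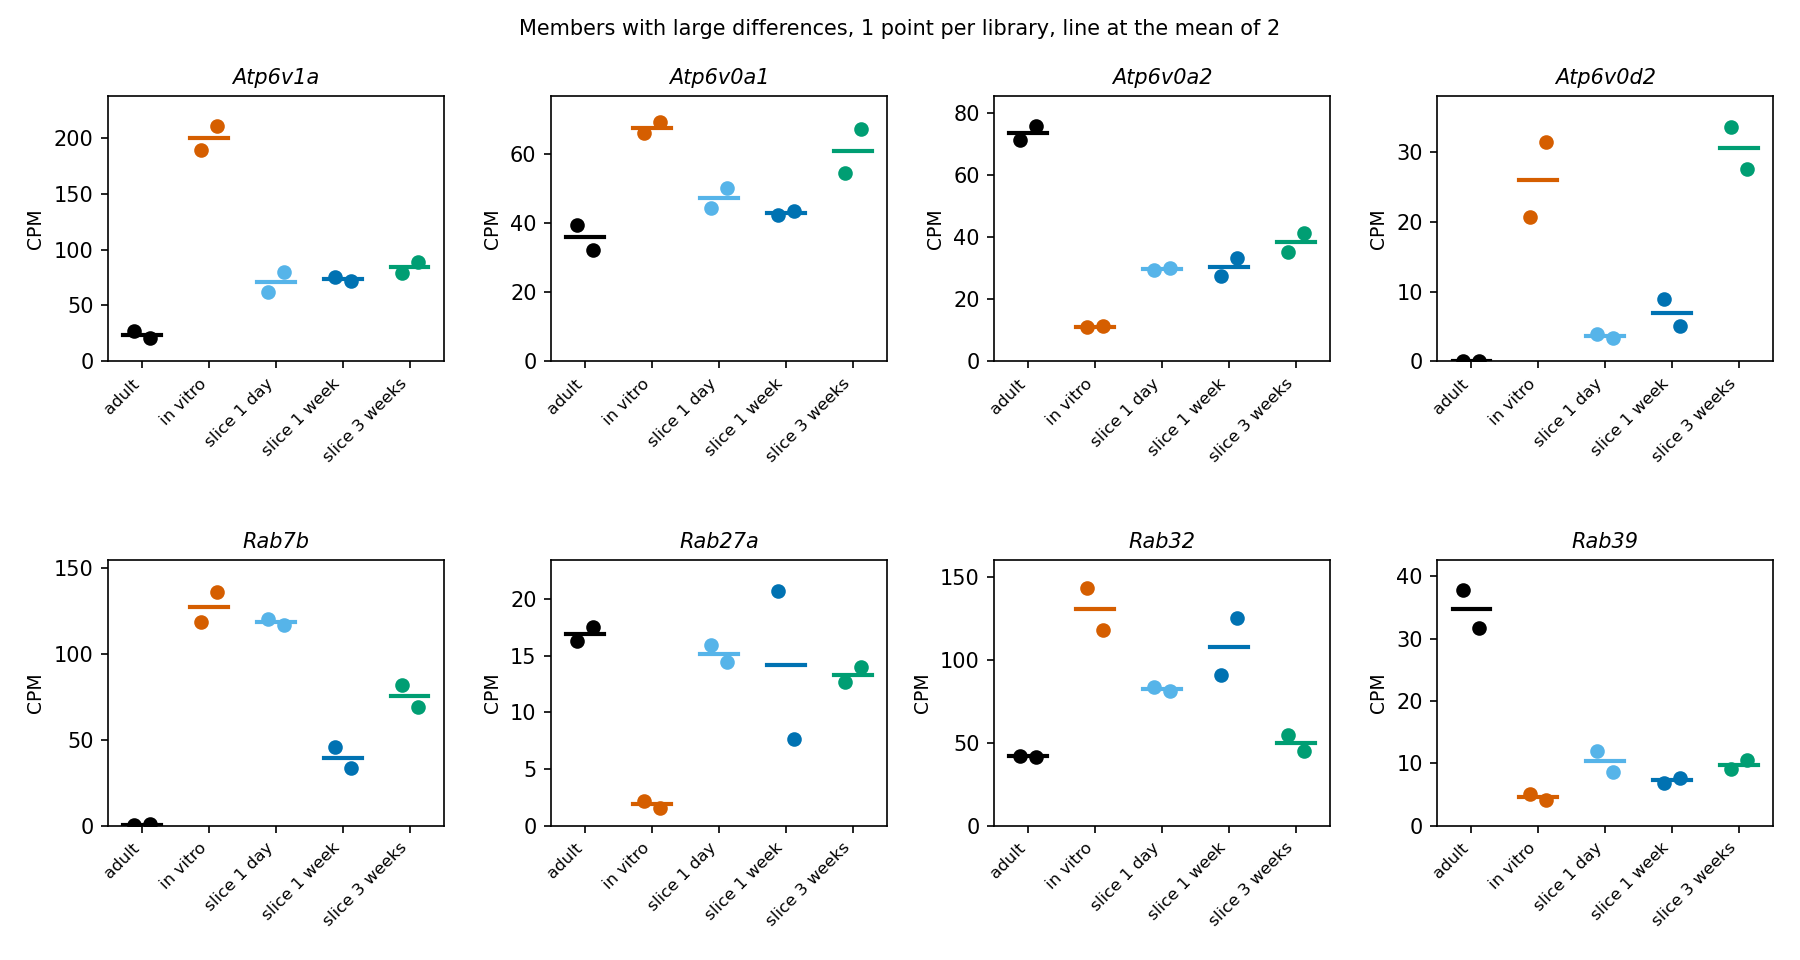
Level in CPM (y axis, linear from 0) of 8 members in each of the 10 libraries (points) by group (x axis), with a line at the mean of 2 libraries. Atp6v0a2 and Rab39 sit highest in adult, Rab27a is lowest *in vitro* with 1 slice 1 week library between that level and the rest, and Rab7b and Atp6v0d2 are at or near 0 only in adult.

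The proteolipid genes of the V0 ring did not move together. Atp6v0b, which encodes the c″ proteolipid and was the most highly read member in adult at 890 and 965 CPM, fell in the slices to 560 and 533 CPM at 1 day, 557 and 608 CPM at 1 week and 590 and 499 CPM at 3 weeks. The log2 fold changes were -0.76 ± 0.14, -0.67 ± 0.14 and -0.77 ± 0.14 (edgeR adjusted p = 0.0012, 0.0061 and 0.0019). *In vitro* it was at 823 and 803 CPM and did not pass (-0.19). The 1 week call was lost without slice 1 week replicate 1 (-0.58, 0.0814), and on the UMIs-per-cell scale the slice differences were 0.794, 0.533 and 0.358. Atp6v0c, the main ring proteolipid, was read at only 2.05 to 13.4 CPM. The annotation lists processed pseudogenes of it, Atp6v0c-ps1 and Atp6v0c-ps2, so reads may have been split between near-identical copies and its differences are uncertain. Atp6v0e, a small V0 subunit, rose *in vitro* (from 279 and 310 CPM to 595 and 638 CPM, 1.07 ± 0.14, edgeR adjusted p = 0.00012), and did not pass in the slices (0.49, 0.40 and 0.53). Its paralog Atp6v0e2 was at 0.129 to 5.11 CPM and was called in all 4 comparisons, but each call was lost in some fit without 1 library. The *in vitro* call was lost without either adult or either *in vitro* library (1.65 to 2.48), and the 1 week call without slice 1 week replicate 1 (4.76, 0.0637). The 1 day and 3 weeks calls were lost without either adult library (1.89 to 2.70), either *in vitro* library, or a library of their own group.

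The accessory proteins were lower or level. Atp6ap2, also known as the prorenin receptor, was at 315 and 346 CPM in adult, 216 and 222 CPM *in vitro*, 277 and 292 CPM at 1 day, 214 and 222 CPM at 1 week and 342 and 328 CPM at 3 weeks. It fell by 0.59 *in vitro* (edgeR adjusted p = 0.0027) and by 0.60 at 1 week (0.0079), close to the fold threshold. The *in vitro* call was lost without any single library but slice 1 day replicate 1, with values from -0.57 to -0.45. The 1 week call was lost without adult replicate 2, slice 1 day replicate 2 or slice 1 week replicate 1 (-0.55 to -0.54). On the UMIs-per-cell scale these differences were 1.60 and 0.61. Atp6ap1, which encodes Ac45, was at 382 and 359 CPM in adult and fell at 1 day to 234 and 232 CPM (-0.67 ± 0.15, edgeR adjusted p = 0.0036), a call lost without adult replicate 1 (-0.58, 0.0321), while the difference per cell was 0.87.

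Relative to the other transcripts, Rab genes moved in both directions, and counts of calls were highest *in vitro*. *In vitro*, 19 of the 48 tested Rab genes rose and 11 fell (22.4% and 28.5% of all genes). At slice 1 day 9 rose and 9 fell (24.9% and 25.3%), at 1 week 8 rose and 6 fell (15.0% and 13.6%), and at 3 weeks 4 rose and 9 fell (17.9% and 17.5%). Without TMM these were 12 and 13, 9 and 12, 7 and 10, and 3 and 14, and on the UMIs-per-cell scale they were 41 and 1, 39 and 1, 31 and 0, and 27 and 0. Leaving out 1 library also moved the split, to 21 and 6 *in vitro* without *in vitro* replicate 1 and 19 and 5 without *in vitro* replicate 2, and to 8 and 3 at 1 day without slice 1 day replicate 2. It became 3 and 3 at 1 week without slice 1 week replicate 1, and at 3 weeks 8 and 10 without slice 3 weeks replicate 1 and 4 and 4 without replicate 2. The median log2 fold changes were 0.23, 0.00, 0.17 and -0.03. The summed Rab level was 2842 and 3034 CPM in adult and 3815 and 3794 CPM *in vitro*, a ratio of 1.29 (1.05 without TMM). In the slices the ratios of 1.07, 1.02 and 0.961 became 0.984, 0.888 and 0.835 without TMM.

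Rab7b gave the largest rise of all members with counts in adult. This late endosomal Rab, which acts in transport from late endosomes to the trans-Golgi network, was read at 0.293 and 0.901 CPM in adult, 118 and 136 CPM *in vitro*, 120 and 117 CPM at 1 day, 45.4 and 33.2 CPM at 1 week and 81.8 and 68.8 CPM at 3 weeks. The adult libraries held 4 and 7 UMIs, and every culture library lay above 33 CPM. The log2 fold changes were 7.90 ± 0.31, 7.80 ± 0.32, 6.27 ± 0.37 and 7.14 ± 0.31 (edgeR adjusted p = 4.1e-08, 1.5e-07, 2.6e-06 and 4.1e-07). Without neutrophil-marker cells they were 7.90, 7.85, 6.35 and 7.14. It lies on chromosome 1 from 131688695 to 131715439 (GRCm38, plus strand). Rab7, the Rab that governs fusion of late endosomes with lysosomes, moved far less. It was at 212 and 253 CPM in adult and 393 and 398 CPM *in vitro* (0.77 ± 0.14, edgeR adjusted p = 0.0011), and its slice differences of 0.43, 0.53 and 0.39 did not pass.

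Among the other late endosome and lysosome Rabs, Rab34, which acts in lysosome positioning, was at 28.2 and 26.1 CPM in adult, 45.7 and 53.1 CPM *in vitro*, 22.8 and 21 CPM at 1 day and 39.2 and 54.2 CPM at 3 weeks. It rose *in vitro* (0.86 ± 0.18, edgeR adjusted p = 0.0021), at 3 weeks (0.79 ± 0.18, 0.0061) and between slice 1 day and 3 weeks (1.11 ± 0.19, 0.0021). Without slice 3 weeks replicate 2 the 3 weeks value was 0.58 and was not called. Rab12 rose only between slice 1 day and 3 weeks, from 13.6 and 12.4 CPM to 20.4 and 31.9 CPM (1.04 ± 0.22, edgeR adjusted p = 0.007), and this call was lost without slice 1 day replicate 2 (0.96, 0.0791). Rab9 rose *in vitro* (0.69), and the call was lost without adult replicate 2 (0.50).

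Of the 8 early endosome Rabs 4 rose and 1 fell *in vitro*, and in the slices 1 rose and 1 fell at 1 day, 1 rose at 1 week and 1 fell at 3 weeks. Beside these, 22.4% of all genes rose and 28.5% fell *in vitro*, and 24.9% and 25.3%, 15.0% and 13.6%, and 17.9% and 17.5% did so in the slices. Their summed level was 388 and 442 CPM in adult, 645 and 647 CPM *in vitro*, 534 and 566 CPM at 1 day, 570 and 504 CPM at 1 week and 481 and 431 CPM at 3 weeks, and the adult range held 1 of the 3 weeks libraries and no other. The 3 weeks ratio of 1.10 became 0.954 without TMM. Rab5c carried most of this, with 176 and 188 CPM in adult against 393 and 392 CPM *in vitro* (1.11 ± 0.14, edgeR adjusted p = 8.3e-05) and 322 and 334 CPM at 1 day (0.85 ± 0.14, 0.00056). The paralogs Rab5a and Rab5b, which share its role in early endosome fusion, did not pass *in vitro* (-0.40 and 0.13). Rab31 (0.93), Rab21 (1.31) and Rab4a (0.93) also rose *in vitro*, the last of these not without adult replicate 1 (0.88, 0.0548).

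Rab4b, a fast recycling Rab, went in both directions. It was at 11.0 and 15.6 CPM in adult, 3.88 and 3.39 CPM *in vitro*, 16.5 and 17.1 CPM at 1 day, 45.4 and 38.3 CPM at 1 week and 9.18 and 4.33 CPM at 3 weeks. It fell *in vitro* (-1.85 ± 0.31, edgeR adjusted p = 0.00058) and at 3 weeks (-1.04 ± 0.32, 0.026), and it rose at 1 week (1.70 ± 0.37, 0.0063). The 1 week call was lost without slice 1 week replicate 1 (1.57, 0.142), and the 3 weeks call without adult replicate 2 (-0.77), slice 1 day replicate 2 (-0.97) or slice 3 weeks replicate 2 (-0.45). Leaving out neutrophil-marker cells gave 1.72 at 1 week. Per cell the *in vitro* and 3 weeks differences were 0.37 and 0.18. Rab4b overlaps the gene Gm21983 on the same strand in GENCODE M21, so part of its reads may have gone uncounted.

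**Figure D3:**
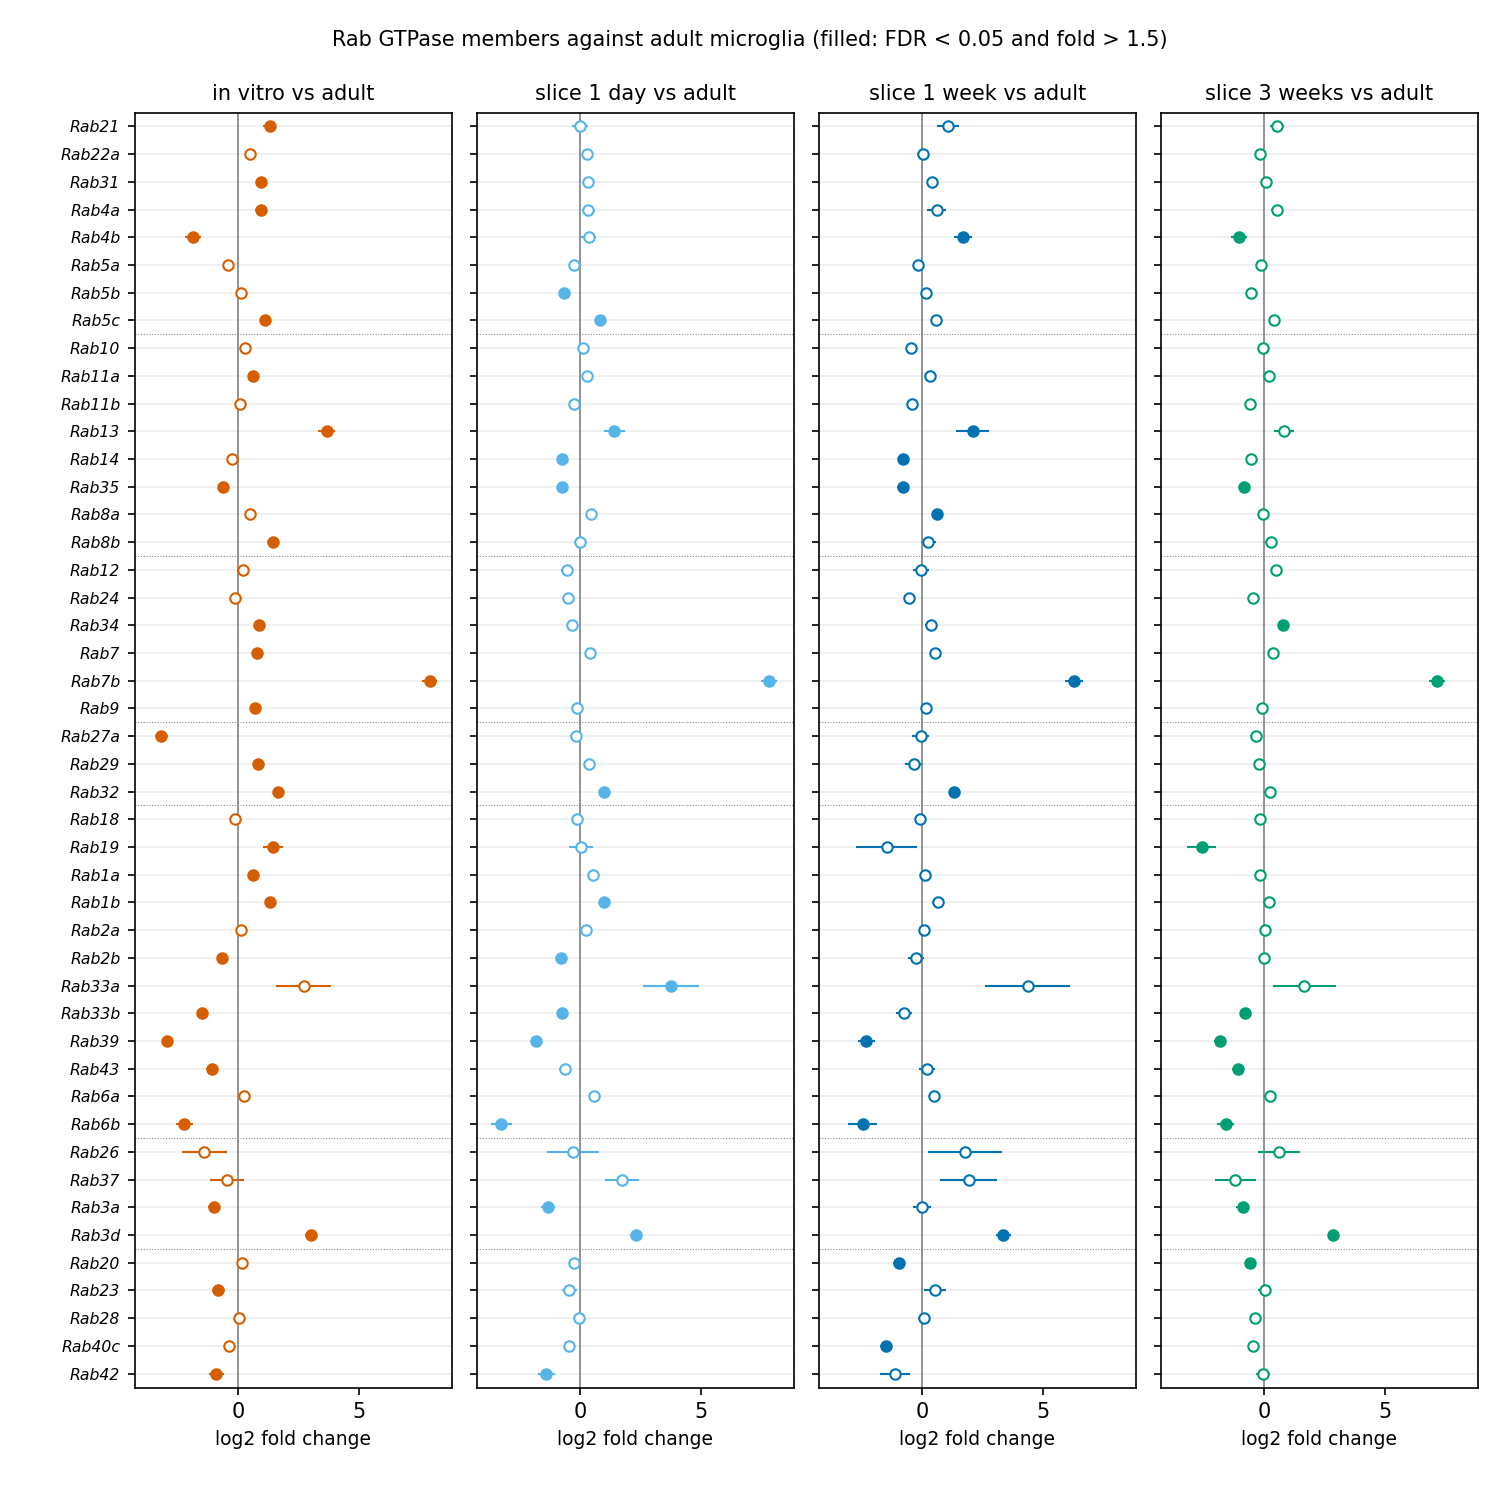
Log2 fold change against adult microglia (x axis) of the 46 tested Rab genes with counts in adult libraries (y axis, by role from early endosome at the top to other Rabs at the bottom, parted by dotted lines), with bars of 1 standard error. Filled points passed the test; Rab7b lies far to the right and Rab39 and Rab6b to the left in all 4 panels, while Rab27a is called only *in vitro*.

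Of the lysosome-related organelle Rabs, Rab27a, which moves melanosomes and secretory lysosomes to the cell edge, was at 16.3 and 17.5 CPM in adult and 2.18 and 1.57 CPM *in vitro*, against 16.0 and 14.4 CPM at 1 day, 20.7 and 7.67 CPM at 1 week and 12.7 and 14.01 CPM at 3 weeks. It fell *in vitro* by -3.17 ± 0.27 on the log2 scale (edgeR adjusted p = 4.8e-06) and stood below slice 3 weeks by -2.83 ± 0.26 (2.8e-05). In the slices its differences from adult were -0.16, -0.04 and -0.33 and none passed. Without neutrophil-marker cells its UMIs went from 61 and 140 to 47 and 99 at 1 day and from 21 and 3 to 8 and 3 at 1 week. The differences were then -0.52, -1.02 and -0.33 (edgeR adjusted p = 0.0658, 0.0527 and 0.226), none called. Every fit without 1 library kept both *in vitro* calls. Rab32, which recruits enzymes to lysosome-related organelles and phagosomes, was at 42.0 and 41.7 CPM in adult, 143 and 118 CPM *in vitro*, 83.8 and 81.0 CPM at 1 day, 90.9 and 125 CPM at 1 week and 54.9 and 45.05 CPM at 3 weeks. It rose by 1.64 ± 0.17, 0.98 ± 0.17 and 1.33 ± 0.19 (edgeR adjusted p = 2.1e-05, 0.00082 and 0.00065) and did not pass at 3 weeks (0.25). Slice 3 weeks was below slice 1 day by -0.72 ± 0.17 (0.011), but not without slice 1 day replicate 2 (-0.74, 0.0588) or slice 3 weeks replicate 2 (-0.57, 0.0761). Its close relative Rab38 had 0 counts in adult and 26 and 36 *in vitro*, 6.59-fold the adult floor, and was too low to test. Rab29 rose *in vitro* only (0.83 ± 0.20, edgeR adjusted p = 0.0048), from 11.1 and 10.6 CPM to 19.3 and 19.2 CPM.

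**Figure D4:**
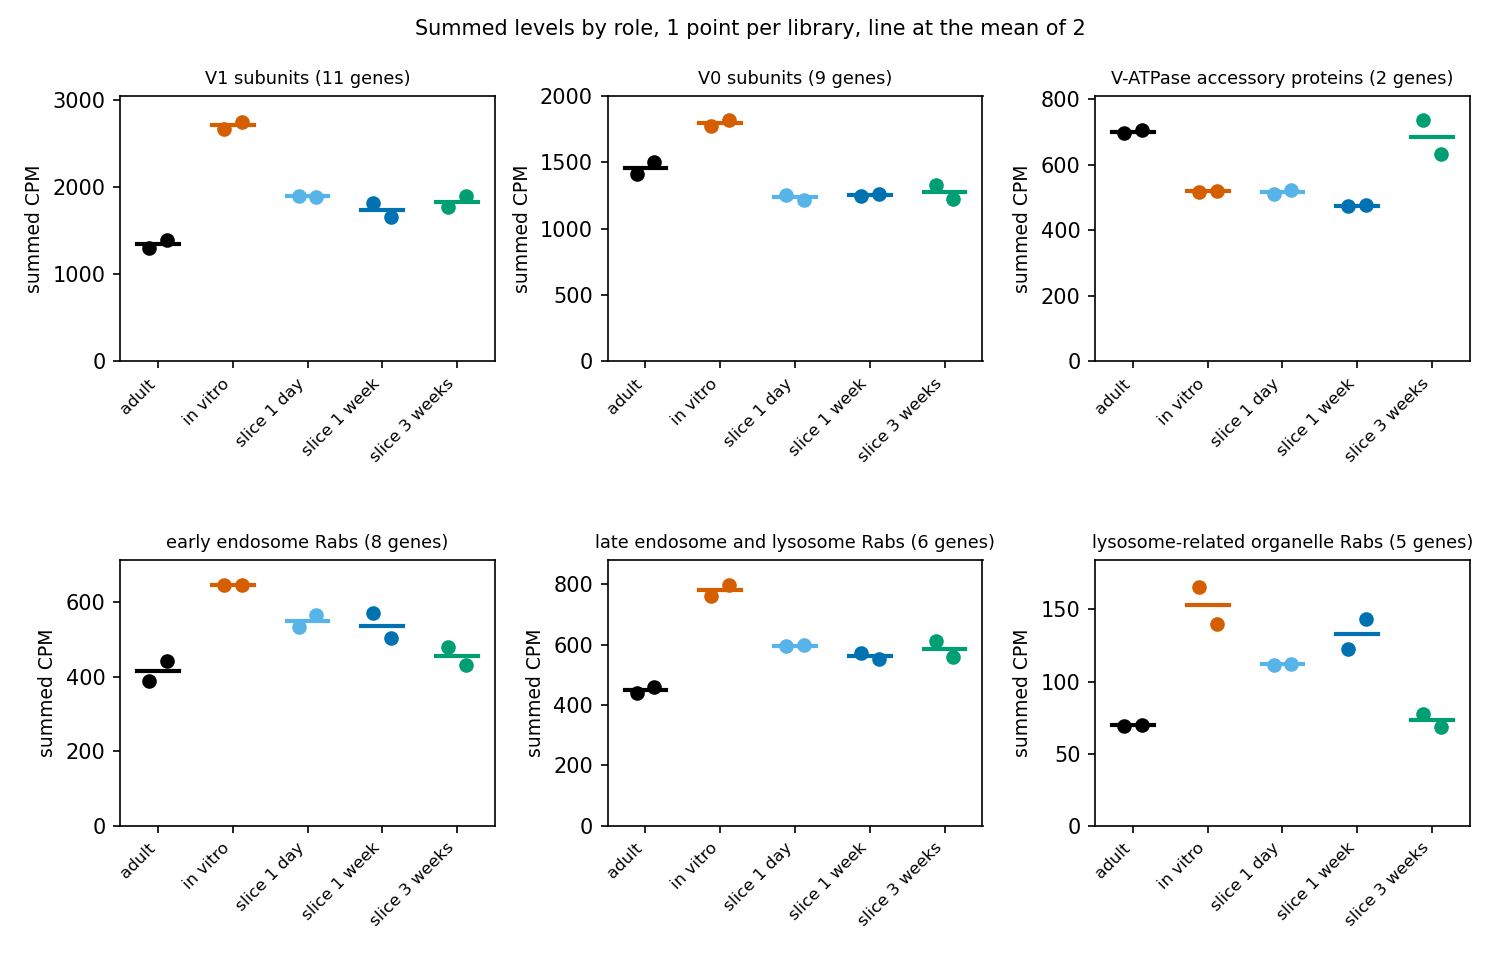
Summed CPM (y axis, linear from 0) of the genes of 6 roles in each of the 10 libraries (points) by group (x axis), with a line at the mean of 2 libraries. V1 subunits and late endosome Rabs are above adult in every culture library, accessory proteins are below adult in every culture library but 1 at 3 weeks, and lysosome-related organelle Rabs return to 77.3 and 68.6 CPM at 3 weeks, near the adult 69.4 and 69.7 CPM.

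Among the 12 tested ER and Golgi Rabs 3 rose and 5 fell *in vitro*, and in slices from the earliest time to the latest 2, 0 and 0 rose and 4, 2 and 5 fell. Of all genes 22.4% rose and 28.5% fell *in vitro*, and 24.9%, 15.0% and 17.9% rose and 25.3%, 13.6% and 17.5% fell in the slices. Rab39, a Rab of phagosomes and autophagy listed with this group, was at 37.8 and 31.8 CPM in adult, 5.10 and 4.09 CPM *in vitro*, 12.05 and 8.54 CPM at 1 day, 6.91 and 7.67 CPM at 1 week and 9.05 and 10.5 CPM at 3 weeks. No culture library came near the adult range. The log2 fold changes were -2.92 ± 0.22, -1.80 ± 0.22, -2.29 ± 0.36 and -1.82 ± 0.21 (edgeR adjusted p = 2e-06, 9.2e-05, 0.001 and 0.00012). Rab6b, the Golgi Rab isoform best known from neurons, fell from 40.8 and 39.0 CPM in adult to 9.02 and 8.27 CPM *in vitro*, 5.50 and 3.50 CPM at 1 day, 3.95 and 15.3 CPM at 1 week and 7.88 and 18.0 CPM at 3 weeks. Its log2 fold changes were -2.21 ± 0.35, -3.23 ± 0.42, -2.43 ± 0.60 and -1.57 ± 0.35 (edgeR adjusted p = 0.00036, 0.00012, 0.012 and 0.005), and the 1 week call was lost without slice 1 week replicate 1 (-1.35, 0.31). Its ubiquitous paralog Rab6a passed in no comparison (0.25 to 0.58 against adult).

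Rab33b, a Golgi Rab that also acts in autophagosome formation, was at 19.5 and 18.7 CPM in adult and 7.80 and 5.83 CPM *in vitro*. It fell by -1.49 ± 0.20 on the log2 scale *in vitro* (edgeR adjusted p = 0.00012) and by -0.75 and -0.76 at 1 day and 3 weeks, and both slice calls were lost without adult replicate 1 (-0.67 in each), the 1 day call also without slice 1 day replicate 2 (-0.67, 0.109). Per cell these 3 differences were 0.68, 0.80 and 0.32. Rab1b, which acts in transport from the ER to the Golgi, was at 32.6 and 27.9 CPM in adult, 78.2 and 73.3 CPM *in vitro* and 50.8 and 69.3 CPM at 1 day. It rose by 1.32 ± 0.19 and 1.00 ± 0.19 (edgeR adjusted p = 0.00019 and 0.0015) and did not pass at 1 week (0.67) or 3 weeks (0.20). Its paralog Rab1a rose only *in vitro* (0.61). Rab2a, among the most highly read Rabs in adult at 192 and 233 CPM, stayed between 192 and 258 CPM in all 10 libraries.

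Rab19 was low and moved in opposite directions against adult. It was at 2.27 and 1.54 CPM in adult, 5.13 and 5.52 CPM *in vitro*, 3.14 and 1.34 CPM at 1 day, 0.988 and 0 CPM at 1 week and 0.517 and 0.233 CPM at 3 weeks. It rose *in vitro* (1.45 ± 0.42, edgeR adjusted p = 0.013) and fell at 3 weeks (-2.57 ± 0.59, 0.0061). The *in vitro* call was lost without adult replicate 2 (1.23, 0.0845) or *in vitro* replicate 2 (1.52, 0.0692), and the 3 weeks call without adult replicate 1 (-2.18, 0.0623) or slice 3 weeks replicate 2 (-1.85, 0.085).

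Secretory granule Rabs were low in adult. Rab3d, a Rab of regulated secretion, was at 2.78 and 3.22 CPM in adult, 23.7 and 24.0 CPM *in vitro*, 13.1 and 15.8 CPM at 1 day, 34.6 and 23.0 CPM at 1 week and 18.5 and 24.5 CPM at 3 weeks. It rose in all 4 comparisons, by 3.00 ± 0.23, 2.30 ± 0.24, 3.36 ± 0.30 and 2.87 ± 0.23 (edgeR adjusted p = 2.7e-06, 3.4e-05, 4.3e-05 and 1.4e-05). Neutrophil-marker cells numbered 71 and 116 at 1 day, 25 and 1 at 1 week and 0 elsewhere. Without them the Rab3d values were 1.86 at 1 day and 2.80 at 1 week, both called. Rab44, best known from granule-bearing blood cells, had 0 counts in adult, and 38 of its 39 UMIs at 1 day came from replicate 2 and all 5 at 1 week from replicate 1, the libraries with the higher neutrophil marker level in each group. The share of neutrophil-marker cells at 1 day was 13.7% in replicate 1 and 11.4% in replicate 2. Without neutrophil-marker cells 11 UMIs of Rab44 were left in slice 1 day replicate 2 and 1 in slice 1 week replicate 1. Rab44 was called upward at 1 day and 1 week. The 1 day call was lost without slice 1 day replicate 2, and the 1 week call without either adult library or slice 1 week replicate 1. *In vitro*, where no such cells were counted, Rab44 held 16 and 21 UMIs and was at 3.94-fold the adult floor. Its *in vitro* call (edgeR adjusted p = 0.046) was lost without either adult or either *in vitro* library. Rab3b had 0 counts in adult and was at 17.4-fold the adult floor *in vitro* (1.64 and 3.22 CPM), a call kept in every fit without 1 library. In the slices it was at 3.54-fold, 25.3-fold and 6.82-fold the floor, on only 5, 4 and 25 UMIs. Each of these slice calls was lost in some such fit. Rab3a, the synaptic vesicle Rab, was at 16.1 and 20.8 CPM in adult, 9.37 and 9.08 CPM *in vitro*, 8.90 and 6.38 CPM at 1 day and 11.8 and 8.61 CPM at 3 weeks. It fell by 0.99, 1.31 and 0.87 on the log2 scale, and did not pass at 1 week (0.01). Its *in vitro* and 3 weeks calls were lost without adult replicate 2 (-0.81 and -0.68) or either *in vitro* library (-0.90 to -0.82), the 3 weeks call also without slice 3 weeks replicate 2 (-0.58), and its 1 day call without slice 1 day replicate 2 (-0.99). Per cell the 3 differences were 1.22, 0.28 and 0.29.

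Recycling and plasma membrane Rabs were divided. Rab14, which shuttles between the Golgi and endosomes and was the most highly read Rab in adult at 445 and 499 CPM, fell to 296 and 265 CPM at 1 day (-0.75 ± 0.14, edgeR adjusted p = 0.0012) and 287 and 263 CPM at 1 week (-0.77 ± 0.14, 0.0028). It did not pass *in vitro* (-0.24) or at 3 weeks (-0.51), and on the UMIs-per-cell scale its slice differences were 0.805 and 0.440. Rab8b, which acts in transport to the plasma membrane, rose *in vitro* only, from 47.9 and 31.8 CPM to 109 and 108 CPM (1.43 ± 0.23, edgeR adjusted p = 0.00044), and lay above slice 3 weeks by 1.14 ± 0.23 (0.0034). Rab13, known from cell junctions, rose *in vitro* from 1.90 and 0.901 CPM to 16.0 and 21.7 CPM (3.66 ± 0.36, edgeR adjusted p = 1.5e-05). It also rose at 1 day (1.42) and 1 week (2.09), both lost without adult replicate 2 (1.07 and 1.73), the first also without slice 1 day replicate 1 (1.19) and the second without either slice 1 week library (1.80 and 2.17). Rab35 fell in all 4 comparisons by 0.60 to 0.82 on the log2 scale, from 106 and 98.8 CPM in adult to between 46.3 and 70.1 CPM in the culture libraries, and on the UMIs-per-cell scale all 4 differences were above 0. The *in vitro* call was lost without any single library but adult replicate 2 and slice 1 day replicate 1 (-0.52 to -0.44), and the 1 day call without slice 1 day replicate 2 (-0.67, 0.0607). The 1 week call was lost without adult replicate 1 (-0.70) or either slice 1 week library (-0.90 and -0.76), and the 3 weeks call without slice 3 weeks replicate 2 (-0.49, 0.0264).

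Rab40c, part of a ubiquitin ligase, fell at 1 week only, from 25.0 and 26.8 CPM to 8.89 and 10.2 CPM (-1.47 ± 0.25, edgeR adjusted p = 0.0017), and not without slice 1 week replicate 1 (-1.31, 0.164). Of the remaining members, Rab11a rose *in vitro* (0.64), Rab8a at 1 week (0.62) and Rab33a at 1 day (3.76, on at most 2.96 CPM in any library). Rab2b (-0.65), Rab23 (-0.81), Rab42 (-0.89) and Rab43 (-1.08) fell *in vitro*, Rab2b (-0.79), Rab42 (-1.39) and Rab5b (-0.66) at 1 day, Rab20 (-0.96) at 1 week, and Rab20 (-0.59) and Rab43 (-1.05) at 3 weeks. Each of these calls was lost in at least 1 fit without a library. Rab12, Rab10, Rab11b, Rab18, Rab22a, Rab24, Rab26, Rab28, Rab2a, Rab5a, Rab6a and Rab37 passed in no comparison with adult. Low counts kept 9 Rab genes out of the test, namely Rab15, Rab25, Rab27b, Rab30, Rab36, Rab38, Rab39b, Rab3c and Rab40b. Small RNAs aside, Rab18, Rab27a, Rab31, Rab39 and Rab6a hold a pseudogene or sense-overlapping transcript on their strand in GENCODE M21, and Rab4a, Rab7, Rab20, Rab26, Rab33b, Rab43 and Rab6b also overlap another gene on the same strand, which limits their counts in the same way as for Rab4b.

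*In vitro* and slice 3 weeks microglia, cultured for the same time, were compared directly. Of the V-ATPase members 4 were higher *in vitro* and 2 lower, where 13.3% of all genes were higher and 19.9% lower. In either direction 33.2% of all genes were called. Without TMM 2 V-ATPase members were higher and 2 lower. Those higher were Atp6v1a (1.24), Atp6v1e1 (0.85), Atp6v1f (0.68) and Atp6v0d1 (0.60), the last not without slice 3 weeks replicate 2 (0.57). Those lower were Atp6v0a2 and Atp6ap2, the latter near the fold threshold (-0.62 ± 0.13, edgeR adjusted p = 0.0042) and lost without any single library but adult replicate 2 and slice 1 day replicate 1 (-0.58 to -0.50). Of the Rab genes 16 were higher and 6 lower *in vitro*, and the median log2 difference was 0.39 against -0.10 for all genes. Rab32 was higher by 1.39 ± 0.17 (edgeR adjusted p = 0.00017), and the largest called difference downward was that of Rab27a. Without TMM 12 Rab genes were higher and 7 lower. Without *in vitro* replicate 2 the split was 14 and 1, and the largest count was 21 and 6 without slice 3 weeks replicate 1. Of the 6 lower calls those of Rab23, Rab42, Rab2b, Rab33b and Rab39 were lost in 8, 7, 6, 2 and 1 of the 10 fits without 1 library, and that of Rab27a in none. The 5 early endosome Rabs that passed were higher *in vitro*, but the Rab21 call (0.78) was lost without adult replicate 2, either *in vitro* library, slice 1 day replicate 1 or slice 3 weeks replicate 1 (0.63 to 0.91), and the Rab5b call without *in vitro* replicate 1 (0.69).

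Within the slices, 2 V-ATPase members were higher and 1 lower at 3 weeks than at 1 day (13.9% and 12.8% of all genes, 26.7% in all). These were Atp6v0d2 and Atp6ap1 (0.59) upward and Atp6v1b2 (-0.72 ± 0.14, edgeR adjusted p = 0.0044) downward. The Atp6ap1 call was lost without slice 3 weeks replicate 1 (0.38, 0.0607), either slice 1 day library (0.59 in each) or adult replicate 2 (0.58), and the Atp6v1b2 call without slice 3 weeks replicate 2 (-0.58). Of the Rab genes 5 were higher and 8 lower at 3 weeks. This count fell to 1 and 2 without slice 1 day replicate 2 and to 2 and 3 without slice 3 weeks replicate 2, so most of these calls rested on the larger library of a group. The adult and slice 3 weeks groups each had 1 library under each of the 2 study labels. With the label as a term 85 of the 88 calls of named members over all comparisons were kept, and no test was possible within the smaller label, which held 1 library of each.

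Genes that act with the 2 families were followed in lists, whose counts stand beside 22.4% of all genes up and 28.5% down *in vitro*, and, by slice time, 24.9%, 15.0% and 17.9% up and 25.3%, 13.6% and 17.5% down. Of 10 tested genes for the a3 subunit, V-ATPase assembly and regulation, 4 rose and 3 fell *in vitro*, and 1, 2 and 3 rose and 2 fell each time in slices from the earliest time to the latest. Dmxl2 and Rogdi, parts of the complex that helps V1 join V0, moved apart. Dmxl2 was at 3.37 and 2.06 CPM in adult and rose in all 4 groups, by 1.55, 1.73, 2.03 and 1.57. Rogdi was at 235 and 223 CPM in adult and fell to 67.6 and 53.0 CPM *in vitro*, 63.4 and 59.3 CPM at 1 day, 120 and 97.1 CPM at 1 week and 69.0 and 40.2 CPM at 3 weeks (-2.08 ± 0.24, edgeR adjusted p = 0.00011 at 3 weeks). Of 11 lysosomal ion channels 4 rose and 3 fell *in vitro*, and in the slices 3 rose each time and 4, 2 and 3 fell. The calcium channel gene Mcoln2 had 0 counts in adult and was at 63.5-fold, 40.9-fold, 25.3-fold and 26.7-fold the adult floor in the culture groups. These rest on 597, 85, 4 and 116 UMIs, so the 1 week value is uncertain. The 2-pore channel gene Tpcn1 was at 73.3 and 77.2 CPM in adult and fell in all 4 groups, lowest at 1 day with 12.6 and 14.5 CPM (-2.46 ± 0.16, edgeR adjusted p = 1.9e-06). Mcoln3 also had 0 adult counts and was at 4.65-fold the floor at 1 day and 26.8-fold at 1 week, on only 8 and 6 UMIs.

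Of 15 tested MiT factor and lysosomal mTORC1 docking genes, 8 rose and 3 fell *in vitro* (22.4% and 28.5% of all genes). In slices from the earliest time to the latest, 1, 1 and 2 rose and 4, 2 and 2 fell, beside 24.9%, 15.0% and 17.9% of all genes up and 25.3%, 13.6% and 17.5% down. Among the MiT transcription factors, which bind the E-box shown above, Mitf rose *in vitro* (from 16.7 and 21.1 CPM to 34.6 and 32.4 CPM, 0.83 ± 0.17, edgeR adjusted p = 0.0016). Tfe3 fell in all 4 groups (-1.09, -1.11, -0.75 and -0.86), and Tfeb passed in none. Fnip2 (2.60) and Rragd (3.71), regulators of mTORC1 at lysosomes, were the largest rises *in vitro* in the list.

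Of 30 tested Rab GEFs and GAPs, which switch Rabs on and off, 2 rose and 10 fell *in vitro* against adult (22.4% and 28.5% of all genes). In slices from the earliest time to the latest, 1 rose each time and 16, 7 and 10 fell (24.9%, 15.0% and 17.9% of all genes rose and 25.3%, 13.6% and 17.5% fell). In the other comparisons 6 were higher and 7 lower *in vitro* than at slice 3 weeks, and 8 were higher and 1 lower at slice 3 weeks than at 1 day. Hps4, part of the exchange factor for Rab32 and Rab38, was at 106 and 102 CPM in adult, 16.3 and 14.9 CPM *in vitro*, 22.3 and 15.5 CPM at 1 day, 22.7 and 20.5 CPM at 1 week and 46.8 and 48.0 CPM at 3 weeks. It fell in each (-2.73 ± 0.16, -2.49 ± 0.17, -2.24 ± 0.22 and -1.13 ± 0.15, edgeR adjusted p = 4.4e-07, 2.5e-06, 7.9e-05 and 0.00031), while Rab32 rose in 3 of the 4. Rab3ip, an exchange factor for Rab8, fell in all 4 groups (-2.82, -2.18, -1.49 and -1.45). Dennd4a, an exchange factor for Rab10, fell *in vitro* (-2.54) and at 1 day (-1.52), and Usp6nl, a GAP, fell at 1 day (-2.45). Of 8 prenylation and recycling genes, 0 rose and 1 fell *in vitro*, and by slice time 1, 0 and 1 rose and 2, 2 and 1 fell.

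Of 27 tested Rab effectors and tethers, 11 rose and 5 fell *in vitro* (22.4% and 28.5% of all genes). In slices from the earliest time to the latest, 7, 5 and 4 rose and 7, 4 and 4 fell (24.9%, 15.0% and 17.9% of all genes rose and 25.3%, 13.6% and 17.5% fell). Mlph, which encodes melanophilin, the effector that links Rab27a to myosin, was at 57.9 and 69.7 CPM in adult, 0.128 and 0.112 CPM *in vitro*, 4.19 and 0.206 CPM at 1 day, 0.988 and 0 CPM at 1 week and 6.72 and 6.05 CPM at 3 weeks. It fell in all 4 groups (-8.95 ± 0.68 *in vitro* and -3.33 ± 0.47 at 3 weeks, edgeR adjusted p = 2.4e-06 and 0.00038), and Rab27a was called *in vitro* and in no slice group. Eea1, the early endosome tether recruited by Rab5, rose *in vitro* (2.21), at 1 day (1.70) and at 3 weeks (1.92). Plekhm1, which links Rab7 to lysosome fusion, rose *in vitro* from 2.85 and 2.32 CPM to 24.5 and 26.6 CPM (3.28 ± 0.31, edgeR adjusted p = 1.1e-05). The effectors Rilpl1 and Rilpl2 moved apart in every group, Rilpl1 falling (-2.97, -2.88, -2.18 and -1.02) and Rilpl2 rising (2.31, 1.84, 1.52 and 1.86). Rab11fip1, a Rab11 effector, rose at 1 day (2.38), on at most 4.12 CPM in any library. Lrrk1, a kinase of the family that phosphorylates Rabs, fell in all 4 groups (-2.47, -2.70, -1.98 and -1.60). Lrrk2, its relative, had 0 counts in adult and was at 7.33-fold, 9.39-fold, 24.7-fold and 1.55-fold the adult floor *in vitro* and by slice time. These rest on 69, 24, 7 and 4 UMIs, the last not called.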

How the data were processed

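Sorted microglia in 10 libraries (2 per group, 5 groups) were profiled with the 10x Genomics 3′ v2 kit. The authors deposited UMI counts per gene and cell barcode. The submitters' processing notes name Cell Ranger 1.3.0 and mm10. The tables are separate for each library, and the study combined them into 1 table for its own analysis.

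Cells with at most 5% mitochondrial counts, at least 400 genes and at most 30000 UMIs were kept, after the study's filter, which left 19059 of 19637 barcodes. The study's further removal of outlier cells was not repeated, and no doublet caller was run. UMIs were summed per library and tested with edgeR 4.0.16 (R 4.3.3; TMM, filterByExpr with a minimum count of 10, quasi-likelihood fit of all 5 groups), adjusted over 12157 genes. A call needed an adjusted p under 0.05 and a fold above 1.5. DESeq2 1.42.0 was an alternative, and other scalings, filters, a replicate block, a study label term and leaving out each library were tried. When a group is left with 1 library, it is assumed to vary like the other groups. Floors cover counting error in the adult libraries only and not in the culture libraries, so folds over a floor on few UMIs may be lower. Standard errors carry the spread between libraries. On simulated counts (11037 genes, *in vitro* against adult), 45% of log2 changes of 1 and 95% of changes of 2 were called. Only 100 genes were changed at each size, all of them well counted, and all genes shared the same dispersion. In the data 50.8% of genes were called in this comparison, so these shares do not give the power of the tests here or for low-count members.

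Per-library values and full statistics are given for the 3 members with the largest calls in each direction and comparison, by family, with average log2 CPM of at least 3, and for the 3 highest in adult. Isoform partners are added, as are pathway genes called with a log2 change of at least 2 against adult. Values of Rab5c, Rab13, Rab19, Rab21, Rab29, Rab31, Rab35, Rab38, Rab44, Rab3b, Mitf, Tfe3 and Tfeb were added after they were seen. The members and the lists were chosen with earlier results of these data known. Coordinates are from GENCODE M21 and promoter windows from RefSeq, both on GRCm38, the build of mm10.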

Additional observations from a re-analysis of the deposited data

Results flagged for a closer look

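Rab19 was called in opposite directions against adult *in vitro* and at slice 3 weeks, and the direct comparison of these groups gave a log2 difference of 4.01 (edgeR adjusted p = 0.00029), which held in every fit without 1 library. Its call against adult was lost *in vitro* without adult replicate 2 (1.23) or *in vitro* replicate 2 (1.52), and at 3 weeks without adult replicate 1 (-2.18) or slice 3 weeks replicate 2 (-1.85).

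Rab4b was called upward at slice 1 week and downward *in vitro*, a difference between log2 fold changes of -3.55 (*in vitro* minus slice 1 week). It was also called downward at slice 3 weeks, a difference of 2.74 (slice 1 week minus slice 3 weeks). These Rab4b differences were not tested. The 1 week call was lost without slice 1 week replicate 1 (1.57), and the 3 weeks call without adult replicate 2 (-0.77), slice 1 day replicate 2 (-0.97) or slice 3 weeks replicate 2 (-0.45). Groups of 2 libraries are too small to look for a library that stands apart.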

How the results depend on the processing

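Of 88 calls of the named members, 84 kept their call with DESeq2, 79 without TMM, 86 without the low-count filter, 85 with the study label as a term, 85 with all barcodes, 85 without cycling cells, 87 without neutrophil-marker cells and 86 in the larger study label alone. None of these turned a direction. The alternatives without neutrophil-marker cells and in the larger study label alone were chosen after seeing the data. With the replicate number as a block 87 were kept, and the 1 lost was Atp6ap1 between slice 3 weeks and 1 day (0.58). The block gave 15, 10, 9 and 8 V-ATPase and 29, 17, 14 and 12 Rab calls against adult. Deviations of same-numbered libraries correlated at -0.112 to 0.0941 between groups, so the numbers were not taken to pair them. Removing cells with markers of any other type left 0 to 54 cells in several culture libraries and was not run.

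On the UMIs-per-cell scale 21 of the 88 calls of named members turned direction, and 38 of the 162 calls of all members. For Atp6ap1 at 1 day the value was 0.87, and for Atp6ap2 it was 1.60 *in vitro*, 0.61 at 1 week and 0.46 *in vitro* against slice 3 weeks. Atp6v0a2 had 0.26 at 1 day and 0.16 at 3 weeks, Atp6v0b 0.79, 0.53 and 0.36 in the slices, and Atp6v1c1 0.47 at 1 week. Rab14 had 0.81 at 1 day and 0.44 at 1 week, Rab33b 0.68 *in vitro*, 0.80 at 1 day, 0.32 at 3 weeks and 0.36 *in vitro* against slice 3 weeks, Rab3a 1.22, 0.28 and 0.29, and Rab4b 0.37 *in vitro* and 0.18 at 3 weeks. Counts on this scale were 16 V-ATPase calls at 3 weeks and 14 *in vitro* against slice 3 weeks, and 40, 31 and 27 Rab calls in the slices and 38 *in vitro* against slice 3 weeks. The scale keeps the larger UMI total per cell of the culture groups. With no fold threshold the V-ATPase calls at 3 weeks and *in vitro* against slice 3 weeks were 13 and 10.

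The summed V-ATPase ratios to adult (*in vitro*, then slices by time) were 1.16, 0.955, 0.858 and 0.940 without TMM and 6.51, 3.06, 2.27 and 2.34 per cell. The *in vitro* ratio was 1.53 with all barcodes and 1.55 without cycling cells, which also gave 1.13 at 1 day and 1.15 at 3 weeks. The Rab ratios were 1.05, 0.984, 0.888 and 0.835 without TMM and 5.89, 3.16, 2.36 and 2.08 per cell. *In vitro* they were 1.38 with all barcodes and 1.37 without cycling cells, which gave 1.13 at 1 day. The causes were not tested.

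Leaving out 1 library at a time gave 11 to 15, 9 to 11, 6 to 9 and 5 to 10 V-ATPase calls against adult, 6 to 8 *in vitro* against slice 3 weeks and 2 to 3 between slice times. The V-ATPase count at 3 weeks was 5 without adult replicate 1. For Rab genes the ranges were 24 to 32, 11 to 21, 6 to 17 and 8 to 18 against adult, 15 to 27 and 3 to 14. The lowest Rab counts were those without *in vitro* replicate 2, slice 1 day replicate 2, slice 1 week replicate 1 and slice 3 weeks replicate 2 in the comparisons with adult. Of 162 member calls, 84 were kept in every such fit. The 148 and 61 cells of slice 1 week limit what can be shown for that group.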
